A study of Mus musculus with 14 samples.

Results

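The protein components of the cytosolic ribosome were followed across 14 messenger RNA libraries of the mouse left ventricle. Genes were taken by name, as rows of the deposited count table whose symbol starts with Rpl (large subunit) or Rps (small subunit) and a digit, without copies marked -ps and without the S6 kinases that share the prefix Rps6k. This gave 83 of 24054 rows, 49 named Rpl and 34 named Rps. No expression value entered the choice. Of the 83, 73 are the usual subunits of the ribosome, 9 are paralogs (related genes such as Rpl3l and Rpl22l1) and 1, Rps19bp1, encodes a protein that binds Rps19. A total of 80 had enough counts to be tested. The other 3 were Rpl10l and Rps27rt, listed at 0 in every library, and Rpl39l, with between 0 and 3 counts in a library.

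All animals are given as strain C56Bl6, spelled as in the labels. For the 5 control libraries, mice had eaten a control diet over 10 weeks. The 4 HFpEF-scr libraries came from mice given High-Fat + L-NAME for 6 weeks and AAV-scramble-sh for 4 weeks, and the 5 HFpEF-FoxO1-sh libraries from mice with the same feeding and AAV-FoxO1-sh for 4 weeks. L-NAME blocks nitric oxide synthases, and with a high-fat diet it is used to model heart failure with preserved ejection fraction (HFpEF). AAV is an adeno-associated virus, here carrying a short hairpin RNA (sh) that is either scrambled or directed at Foxo1. No AAV is named for the controls, so the diet, the virus and the labelled time differ together between them and the HFpEF-scr mice. The same items, and the hairpin directed at Foxo1 as well, differ together between the controls and the HFpEF-FoxO1-sh mice. The age, the sex, the virus dose and serotype and the promoter of the hairpin are not given in the sources used here. Nothing says that libraries of a group are separate animals, so p-values measure the spread between these libraries.

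A ribosome is built from ribosomal RNA and one copy each of most of these proteins, and the genes for them are usually expressed together. Their messenger RNAs start with a run of pyrimidines, the 5′ terminal oligopyrimidine tract, through which mTORC1 signalling raises or lowers their translation, mostly without a change in messenger RNA level. In heart muscle, ribosome number rises during growth of the cell, and Rpl3l takes the place of Rpl3 in many ribosomes of striated muscle. FoxO1 is a transcription factor that insulin signalling keeps out of the nucleus, and it acts opposite to growth signals in muscle.

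Libraries held between 13174118 and 21247155 counts. Foxo1 itself was at 42.2 to 46.96 CPM, counts scaled to a library of 1000000, in controls, 40.1 to 48.3 in HFpEF-scr and 39.3 to 46.0 in the libraries labelled HFpEF-FoxO1-sh. Its log2 fold change between the labelled knockdown and HFpEF-scr was -0.04 ± 0.06 (SE; edgeR adjusted p = 0.780), so the messenger RNA of the whole tissue did not show the knockdown, and these libraries are called FoxO1-sh-labelled. Ventricular muscle markers were abundant, with Myh6 between 51865 and 63758 CPM. Of 4 atrial markers, Sln and Myl7 stayed at or below 1 CPM and Myl4 at or below 2.75. Nppa, which stressed ventricles also make, ran from 40.3 to 186 CPM and was highest in control 3. Its mean was 133 CPM in controls and 51.7 CPM in FoxO1-sh-labelled libraries, and these groups did not overlap. The log2 fold change of Nppa between them was -1.37 ± 0.27 (SE; edgeR adjusted p = 0.00336). Between HFpEF-scr and control libraries it was -0.73 ± 0.28 (adjusted p = 0.121), and the groups overlapped. HFpEF-scr 1 stood apart in red cell markers, with Hbb-b1 at 2364 CPM against a median of 390 CPM over all libraries, and it had the highest Kdr, at 539 CPM against a median of 301. In bulk tissue, fewer cells of a type and less RNA per cell cannot be told apart.

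The sequence around the start of the messenger RNA was looked up in RefSeq (GRCm38.p6). A window was listed for 63 of the 83 members and for 54 of the usual subunits. Each line gives 15 bases before and 15 bases after the listed start, 5′ to 3′, and capitals mark the longest run of C or T in it. Capitals need not lie at the start of the messenger RNA. Those of Rps15a, Rps25, Rps3a1 and Rpl22 lie wholly before the listed start, and those of Rps12, Rps26 and Rpl3l wholly after it. The first 7 belong to genes that were called higher in the FoxO1-sh-labelled libraries than in controls and hold a run of at least 7 letters. The next, Rps3a1 and Rpl22, were called as well and hold no such run. Rpl3l is shown as the muscle paralog. The lines are examples and do not show how common the run is. Within 25 bases of the start it was in 9 of 19 called subunits and in 30 of 54 usual subunits.
Rps12, chr10:23787195-23787224, minus strand: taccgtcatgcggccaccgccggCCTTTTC
Rps9, chr7:3704026-3704055, plus strand: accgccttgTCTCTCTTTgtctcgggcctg
Rps24, chr14:24490663-24490692, plus strand: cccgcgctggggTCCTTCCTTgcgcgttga
Rps26, chr10:128626492-128626521, minus strand: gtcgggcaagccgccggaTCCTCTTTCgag
Rps6, chr4:86857353-86857382, minus strand: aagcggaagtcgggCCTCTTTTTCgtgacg
Rps15a, chr7:118116133-118116162, minus strand: CTCTCTTTCTgccatcttccctcgccggtg
Rps25, chr9:44407699-44407728, plus strand: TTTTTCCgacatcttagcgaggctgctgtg
Rps3a1, chr3:86142654-86142683, minus strand: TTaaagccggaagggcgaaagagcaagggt
Rpl22, chr4:152325711-152325740, plus strand: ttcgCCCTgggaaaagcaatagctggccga
Rpl3l, chr17:24727811-24727840, plus strand: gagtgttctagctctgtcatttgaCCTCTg

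A run of 7 or more letters C or T within 25 bases of the listed start, read on the gene's own strand, was found in 30 of 54 usual subunits (55.56%) and in 7896 of 27025 genes with a window (29.22%). The words CTCTTTC and CTTTCC, searched in the same stretch and strand, were in 6 and 9 of the 54 subunits, or 11.11% and 16.67%, against 0.6586% and 2.416% of all genes. A single run can hold both words and the run itself. Over the whole 300 bases and both strands, CCGGAAG, the core of sites bound by ETS factors, was in 21 of 54 subunits (38.89%) and in 9.121% of all genes. GTAAACA, a word bound by FoxO and other forkhead factors, was in 1 of 54 (1.852%) and in 3.549% of all genes. Among the 19 called subunits with a window, 9 held the pyrimidine run, 4 held CCGGAAG and 0 held GTAAACA. Such matches describe the letters only, and the RefSeq start can lie some bases from the start used in heart.

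The usual subunits were steadily expressed in the control ventricle, but their levels differed between genes. They ran from 12 CPM per kilobase of transcript for Rpl34 to 579 for Rps2, with Rpl39, whose counts were whole throughout, at 52.5. Per kilobase of transcript, their control means had a median of 186 CPM and quartiles of 142 and 271 CPM, and the median coefficient of variation between the 5 control libraries was 2.82%. Rps2, which lies at the entry of the messenger RNA into the small subunit, was the highest, at 579 ± 8.38 CPM per kilobase (SD, n = 5). Rps24 followed at 483 ± 12.7, and Rps15 (383 ± 10.4) and Rpl23a (366 ± 9.85) were among the next. Rps2 and Rps24 were apart by more than the sum of their SDs, while Rps15 and Rpl23a were not.

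The low end of that order included genes whose reads are shared, while Rpl22, Rpl39 and Rps20, also near it, had whole counts throughout. Rpl26 ranged from 0 to 47.9 CPM between libraries of 1 group, the controls, and was listed at 0 in 7 of 14 libraries. The row Gm15772, a copy of Rpl26, was high where Rpl26 was low, and the sum of both varied less within a group, at 116 ± 4.85 CPM in controls (SD, n = 5), 119 ± 4.87 in HFpEF-scr (n = 4) and 128 ± 3.92 in FoxO1-sh-labelled libraries (n = 5). The sum was 108 to 121 CPM in controls and 122 to 132 CPM in FoxO1-sh-labelled libraries, which did not overlap. Rpl34 was between 2.62 and 13.6 CPM, and with Rpl34-ps1 the sum was 69.2 ± 2.15, 67.7 ± 2.84 and 69.0 ± 2.96 CPM in the 3 groups. RSEM divides reads that fit several genes, so a row with such a copy does not give the gene's level. Counts of 23 members were not whole in at least 1 library, and 14 members were affected in 12 or more, among them Rps2, Rpl5, Rps25 and Rpl37. Such rows can take up or lose reads of a copy. Rps20 and Rps15a were also low per kilobase, with annotated lengths of 3706 and 5130 bases, the longest among the usual subunits.

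Summed over all members, the ribosomal protein genes took 1.197% to 1.26% of counts in controls. The 4 HFpEF-scr libraries split, with 1.36% in HFpEF-scr 1 and 1.29% in HFpEF-scr 4 but 1.22% and 1.197% in HFpEF-scr 2 and 3. The FoxO1-sh-labelled libraries 1 to 4 were at 1.29%, 1.314%, 1.299% and 1.309%, and library 5 was at 1.23%. Thus 2 of 4 HFpEF-scr and 4 of 5 FoxO1-sh-labelled libraries lay above every control, and the rest lay inside the control range. The group means were 1.22% ± 0.0282 (SD, n = 5), 1.27% ± 0.0730 (n = 4) and 1.29% ± 0.0343 (n = 5).

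**Figure D1:**
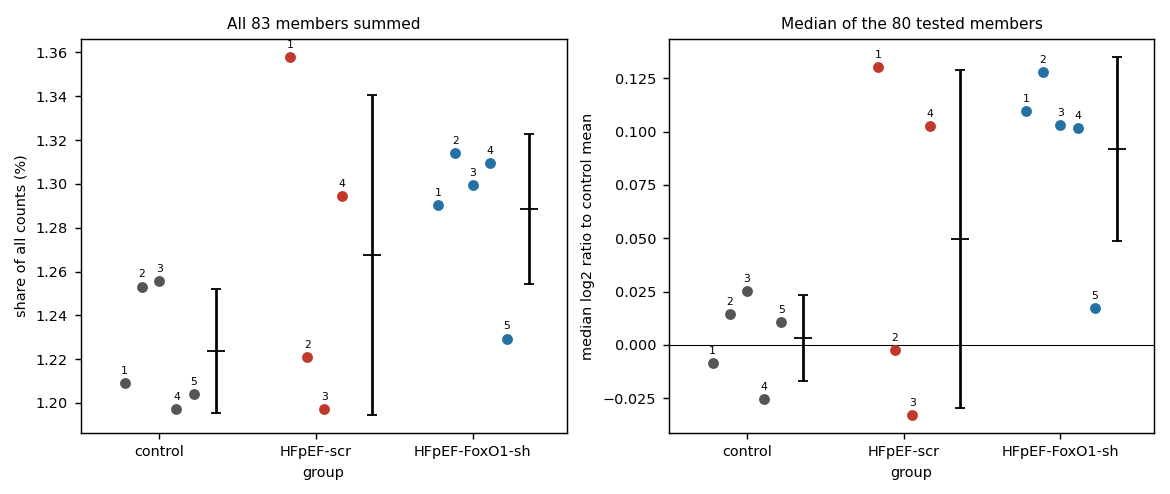
Share of all counts in percent taken by the 83 members (left) and median log2 ratio of the 80 tested members to the control mean (right), with 1 numbered point per library and bars for the group mean ± SD. HFpEF-scr 1 and 4 lie with FoxO1-sh-labelled libraries 1 to 4, above all controls, while HFpEF-scr 2 and FoxO1-sh-labelled library 5 lie within the control range, as does HFpEF-scr 3 at left, which at right lies below the lowest control (-0.03).

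The same split can be counted gene by gene, in the genes that make up that share, so these counts are not a separate result. Of the 80 tested members, 59 in HFpEF-scr 1 and 52 in HFpEF-scr 4 exceeded the highest control library, against 22 in HFpEF-scr 2 and 12 in HFpEF-scr 3. Below the lowest control were 17 members in HFpEF-scr 2 and 30 in HFpEF-scr 3, and 2 each in HFpEF-scr 1 and HFpEF-scr 4. The FoxO1-sh-labelled libraries 1 to 4 had 56, 65, 54 and 52 members above the highest control, and library 5 had 31 above it and 14 below the lowest. The share of all tested genes outside the controls in each library was not counted, so these numbers have no background beside them. HFpEF-scr 1 was also the library with the most red cell transcripts, while HFpEF-scr 4, with Hbb-b1 at 398 CPM, was near the median. The part of blood in the level of HFpEF-scr 1 was not tested.

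**Figure D2:**
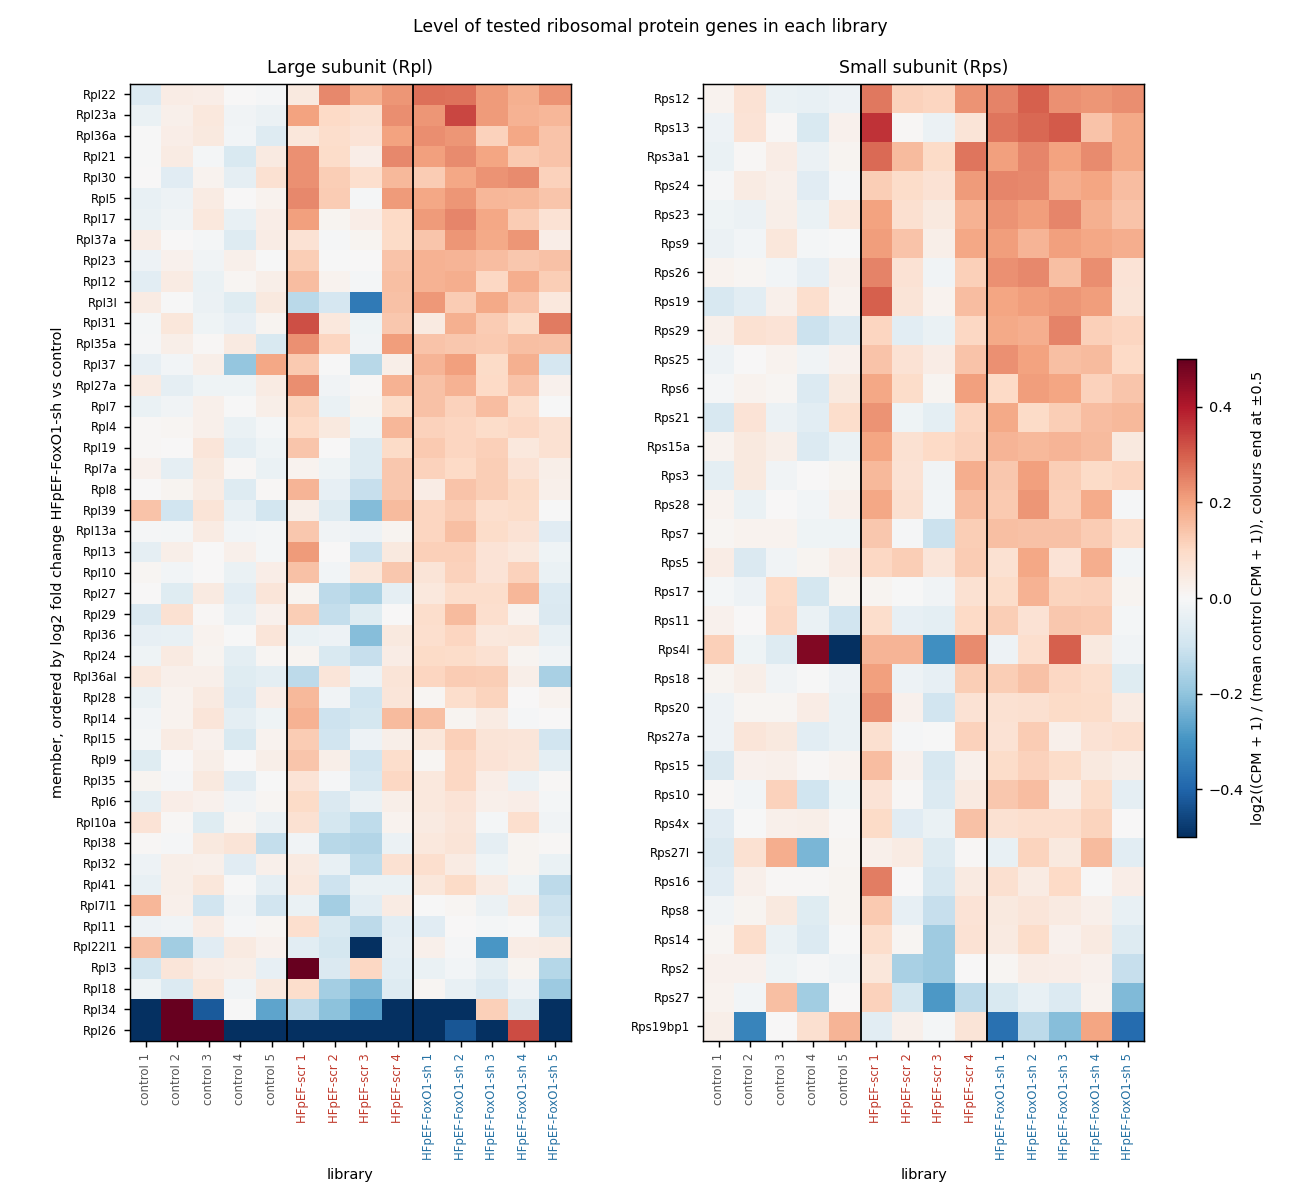
Log2 ratio of the CPM (with 1 added) of 79 tested members to their control means in each of the 14 libraries, large subunit at left and small subunit at right, ordered by the fold change of FoxO1-sh-labelled libraries against controls. Colours end at ±0.5, which 21 of 1106 values from 5 members exceed, most of them of Rpl26 and Rpl34.

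Between HFpEF-scr and control libraries, 6 members were called higher and 0 lower, all of them usual subunits. The rises were small, between 10.6% and 15.2%. For comparison, 3.66% of the 13588 tested genes were called higher and 3.7% lower, and the 6 members are 7.50% of the 80. The median log2 fold change of the members was 0.04, against 0.00 over all tested genes, and 61 of 80 members had a value above 0, against 50.4% of all genes. Of the small subunit, 3 of 33 were called and 31 were above 0. Of the large subunit, 3 of 47 were called and 30 were above 0. No member was lower at an unadjusted p under 0.05, and neither DESeq2 nor limma voom called one lower.

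Rps3a1, a small subunit protein near the exit of the messenger RNA, lay at 284, 292, 299, 285 and 293 CPM in controls and at 354, 325, 310 and 350 CPM in HFpEF-scr. Every HFpEF-scr library was above every control, and the log2 fold change was 0.20 ± 0.04 (SE; edgeR adjusted p = 0.00750). Rps12, a protein of the beak of the small subunit, was at 126, 131, 122, 121 and 122 CPM in controls and at 149, 135, 134 and 146 CPM in HFpEF-scr. Again the groups did not overlap, with a log2 fold change of 0.18 ± 0.04 (adjusted p = 0.0182). Non-overlap of this kind, higher in HFpEF-scr, was seen in 10 of 80 members and in 4.29% of all tested genes.

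Rpl22, a large subunit protein that binds RNA, was at 108, 116, 116, 113 and 112 CPM in controls and at 117, 134, 128 and 132 CPM in HFpEF-scr. Here HFpEF-scr 1 was the lowest of its group, unlike in most other members, and the log2 fold change was 0.18 ± 0.04 (adjusted p = 0.0264). Rps9, at the entry of the messenger RNA, rose by 0.14 ± 0.04 (adjusted p = 0.0350), with 247 to 262 CPM in controls and 257 to 292 CPM in HFpEF-scr. Rpl30 and Rpl23a, which lie at a bridge between the subunits and at the exit of the peptide tunnel, rose by 0.15 ± 0.04 (adjusted p = 0.0452) and 0.15 ± 0.05 (adjusted p = 0.0470). Genes on the opposite strand share 55.0% of the exon bases of Rpl30 and 55.4% of those of Rpl23a. They also share 48.65% of those of Rps25 and 46.6% of those of Rpl5, which were called in FoxO1-sh-labelled libraries against controls. The strand setting of the counting is not given in the sources used here. Without HFpEF-scr 4 only Rps3a1 was still called, 2 members were called without HFpEF-scr 2, and 3 were called without HFpEF-scr 1 or without control 1, 2, 4 or 5. With each of the 9 libraries compared left out in turn, Rpl23a lost its call in 8 fits, Rpl30 and Rps9 in 7 each, Rpl22 in 4, Rps12 in 1 and Rps3a1 in 0.

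Diet, virus, labelled time and hairpin differ together between FoxO1-sh-labelled and control libraries, so their parts cannot be told apart. Between these groups, 24 members were called higher and 0 lower, again all of them usual subunits. That is 30% of the tested members, beside 6.68% of all tested genes called higher and 6.28% called lower. The rises ran from 9.79% to 18.8%. Of the 24, 10 are rows with counts that were not whole in at least 1 library, namely Rpl5, Rps15a, Rps19 and Rps25 in all 14, Rpl23 and Rps26 in 13, Rps23 in 6, Rpl30 in 4, and Rpl17 and Rpl36a in 2, so that part of their reads was divided with other rows. Among tested members with whole counts throughout, 14 of 57 were called. Small subunit genes made up 13 of the 24, of 33 tested, and large subunit genes 11, of 47 tested. The median log2 fold change was 0.08 over all members, 0.10 over the small and 0.07 over the large subunit, against 0.00 over all genes. A value above 0 was seen in 70 of 80 members, against 49.2% of all genes. Of the 80, 0 were lower at an unadjusted p under 0.05, by DESeq2 or by limma voom, which called 26 and 24 members higher. The count was between 15 and 24 when each library was left out in turn, and it was 15 without FoxO1-sh-labelled library 2.

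Rps12 had the smallest p. Its FoxO1-sh-labelled values were 148, 153, 146, 145 and 146 CPM, all above the controls given earlier, and the log2 fold change was 0.25 ± 0.04 (edgeR adjusted p = 7.85e-04). Rps3a1 was at 335, 344, 335, 343 and 331 CPM, also above every control, with a log2 fold change of 0.22 ± 0.04 (adjusted p = 0.00168). Both proteins sit in the small subunit, and in both the FoxO1-sh-labelled libraries spread less than the HFpEF-scr libraries.

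Rps24, an essential small subunit protein mutated in Diamond-Blackfan anaemia, was at 253, 261, 258, 244 and 253 CPM in controls and at 301, 300, 288, 291 and 282 CPM in FoxO1-sh-labelled libraries. The groups were apart, and the log2 fold change was 0.21 ± 0.04 (adjusted p = 0.00170). Rpl22 was at 137, 137, 131, 128 and 132 CPM, and rose by 0.23 ± 0.04 (adjusted p = 0.00179). Rpl23a was at 239, 259, 238, 231 and 230 CPM and rose by 0.23 ± 0.04 (adjusted p = 0.00262). In both, the lowest FoxO1-sh-labelled library was above the highest control.

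Further small subunit genes rose by similar amounts. Rps9 was at 292, 284, 291, 289 and 286 CPM, 0.19 ± 0.04 above controls in log2 (adjusted p = 0.00297). Rps23, at the decoding centre, rose from 139 ± 3.81 CPM (SD, n = 5) to 160 ± 4.47 (n = 5), or by 0.20 ± 0.04 in log2 (adjusted p = 0.00329). Rps25, which many viral internal ribosome entry sites need, went up by 0.17 ± 0.04 in log2 (adjusted p = 0.00620), from 123 ± 1.80 to 138 ± 4.70 CPM. Rps26, next to the exit of the messenger RNA, went up by 0.19 ± 0.05 (adjusted p = 0.0205), from 104 ± 1.95 to 119 ± 6.11 CPM, and lost its call without FoxO1-sh-labelled library 1 (adjusted p = 0.0529) or 2 (0.0506). Rps29 rose by 0.17 ± 0.05 (adjusted p = 0.0295). Rps3, Rps6, Rps13, Rps15a and Rps19 complete the 13. Rps6, the substrate that gave the S6 kinases their name, was at 240 to 260 CPM in controls and at 270 to 291 CPM in FoxO1-sh-labelled libraries.

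Of the large subunit, Rpl23 rose from 323 ± 5.22 to 360 ± 4.00 CPM (SD, n = 5 each), by 0.16 ± 0.04 in log2 (adjusted p = 0.00808). Rpl30 rose by 0.18 ± 0.04 (adjusted p = 0.00831), and Rpl36a, at the exit site of the transfer RNA, by 0.18 ± 0.04 (adjusted p = 0.00881). Rpl21 and Rpl5 rose by 0.18 ± 0.04 each (adjusted p = 0.0126 for both). Rpl5 binds the 5S ribosomal RNA and, together with Rpl11, holds Mdm2 when ribosome assembly fails. Its partner Rpl11 differed by -0.03 ± 0.04 in log2 and was not called (adjusted p = 0.677), a gene named here after its values were seen. Rpl17, at the peptide tunnel, rose by 0.17 ± 0.04 (adjusted p = 0.0192) and was just short of the threshold without library 1 or 2 of the FoxO1-sh-labelled group (0.0502 and 0.0506). Rpl37a rose by 0.16 ± 0.04 (adjusted p = 0.0209). Rpl12, Rpl22, Rpl23a and Rpl35a complete the 11.

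**Figure D3:**
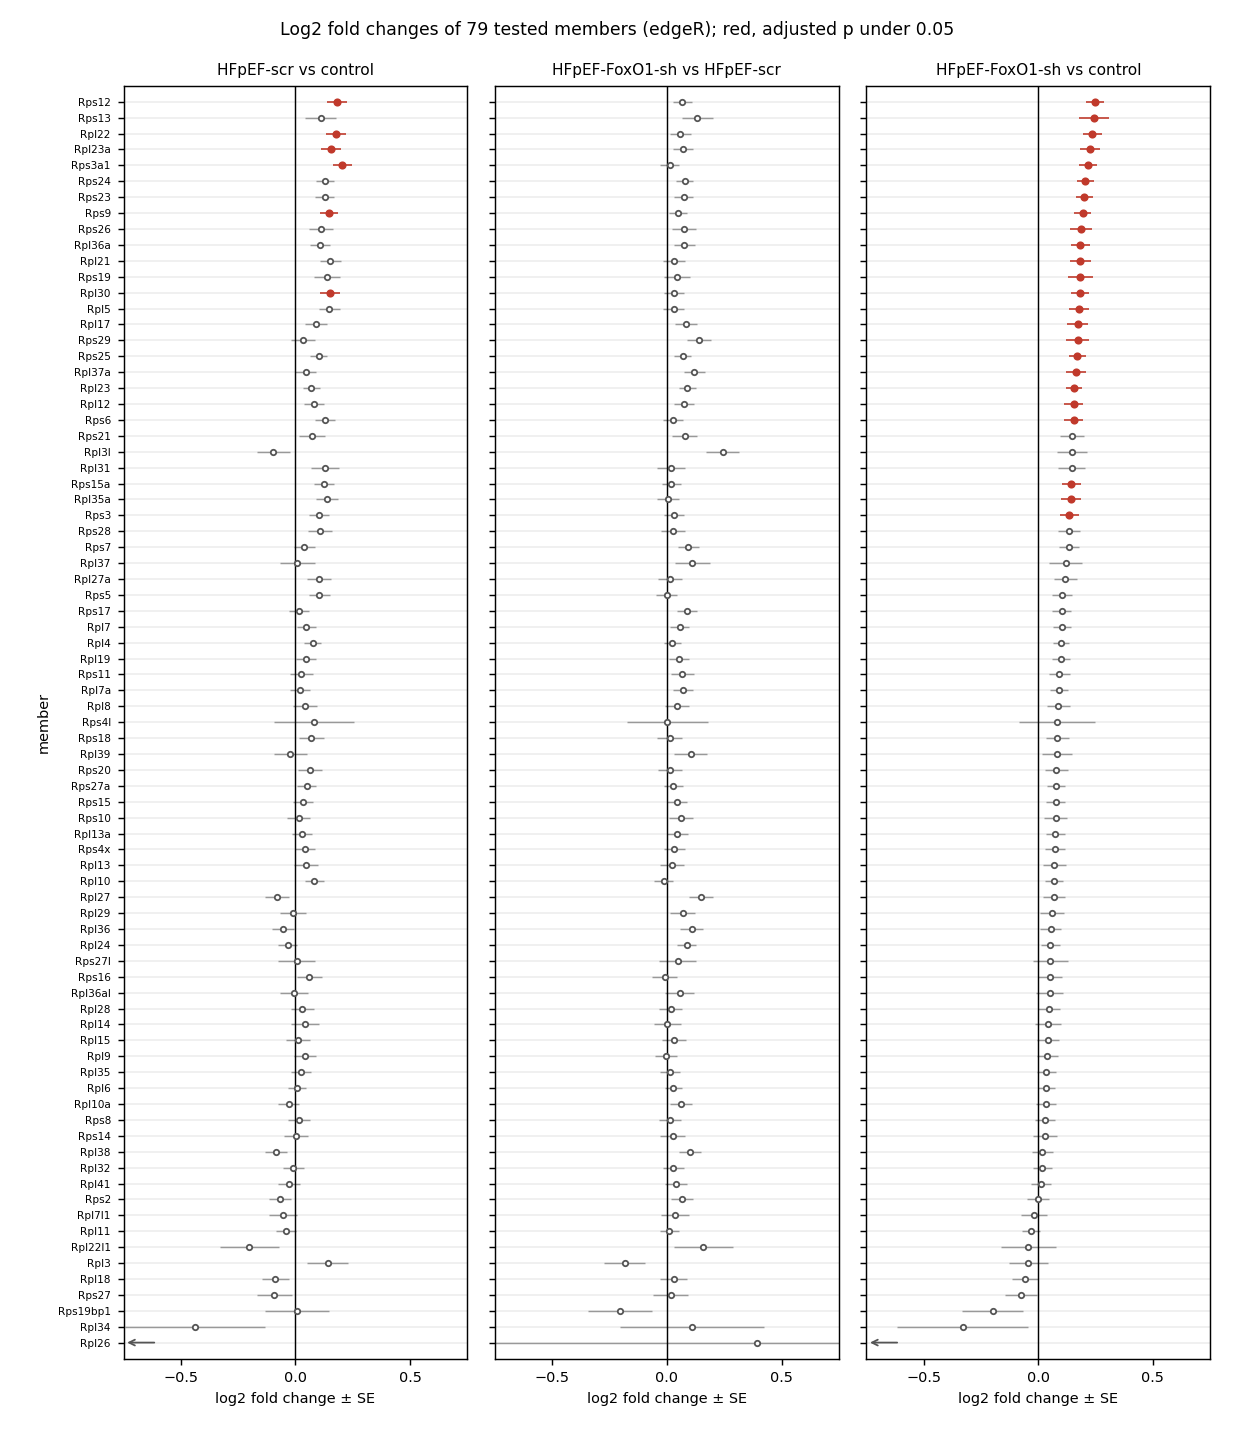
Log2 fold change ± SE of 79 tested members in the 3 comparisons, in the same order in each panel, with red for adjusted p under 0.05. The red points number 6 at left, 0 in the middle and 24 at right, and all lie above 0; arrows mark values of Rpl26 beyond the axis.

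The member with the most counts in each subunit was not called. Rps2 was at 578 ± 8.37 CPM in controls (SD, n = 5), 552 ± 45.4 in HFpEF-scr (n = 4) and 578 ± 24.6 in FoxO1-sh-labelled libraries (n = 5), and its log2 difference between the last and the first was -0.00 ± 0.05 (adjusted p = 0.989; 95% interval -0.10 to 0.10). Rpl4, a protein of the peptide tunnel and the highest large subunit gene by CPM, was at 399 ± 6.04, 421 ± 23.3 and 428 ± 4.41 CPM. Every FoxO1-sh-labelled library, at 421 to 433 CPM, was above every control, at 391 to 407 CPM, yet the difference of 0.10 ± 0.04 in log2 was not called (adjusted p = 0.0751). Between these groups, 27 members lay apart in this way, or 33.8%, beside 6.62% of all tested genes.

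Between FoxO1-sh-labelled and HFpEF-scr libraries, edgeR called 0 members in either direction, where it called 1.32% of all tested genes higher and 2.26% lower. At an unadjusted p under 0.05 there were 6 members, all higher. DESeq2 called 1 member and limma voom 0, and edgeR called 1 without HFpEF-scr 1 and 1 without HFpEF-scr 4. The median log2 fold change of the members was 0.04, against 0.00 over all genes, and 73 of 80 members were above 0, against 51.3% of all genes. The 95% intervals of 71 members lay within a fold of 1.2 in either direction and those of 9 did not. All rises called against controls were smaller than that fold, and the upper limits of Rpl23, Rps24 and Rps12 here were 0.17, 0.16 and 0.16 in log2, so intervals inside it can still hold a change of that size. The HFpEF-scr libraries enter this comparison and the one against controls, and the controls enter both comparisons with the HFpEF mice, so the 3 are not independent.

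Rpl3l, the striated muscle paralog of Rpl3, had the smallest p of that comparison. It was at 266, 258, 253, 248 and 268 CPM in controls, at 235, 244, 202 and 287 CPM in HFpEF-scr and at 301, 282, 295, 286 and 268 CPM in FoxO1-sh-labelled libraries. HFpEF-scr 4 lay among the FoxO1-sh-labelled libraries and the other 3 HFpEF-scr libraries lay below all controls. The log2 fold change between FoxO1-sh-labelled and HFpEF-scr libraries was 0.24 ± 0.07 (edgeR adjusted p = 0.0681), while DESeq2 called it (adjusted p = 0.0266) and edgeR did so without HFpEF-scr 4 (adjusted p = 0.00572). Over all settings tried, its adjusted p ran from 0.00572 to 0.158. Against controls, HFpEF-scr differed by -0.10 ± 0.07 (adjusted p = 0.450) and FoxO1-sh-labelled libraries by 0.15 ± 0.07 (adjusted p = 0.169).

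Rpl3 itself was at 124, 138, 136, 135 and 128 CPM in controls and at 129, 131, 127, 133 and 120 CPM in FoxO1-sh-labelled libraries. In HFpEF-scr it was at 187, 125, 142 and 127 CPM, where the first value belongs to the library rich in red cell and endothelial transcripts. Neither HFpEF-scr against control (0.14 ± 0.09, adjusted p = 0.368) nor FoxO1-sh-labelled against HFpEF-scr (-0.18 ± 0.09, adjusted p = 0.270) was called. The ratio of Rpl3 to Rpl3l in CPM was 0.466 to 0.542 in controls and 0.428 to 0.467 in FoxO1-sh-labelled libraries, ranges that overlapped at their ends. In HFpEF-scr it was 0.796, 0.514, 0.702 and 0.443, wider than both other groups together. Per kilobase the control means were 97.7 CPM for Rpl3 and 215 CPM for Rpl3l, so the paralog was the more abundant of the pair in control ventricle.

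**Figure D4:**
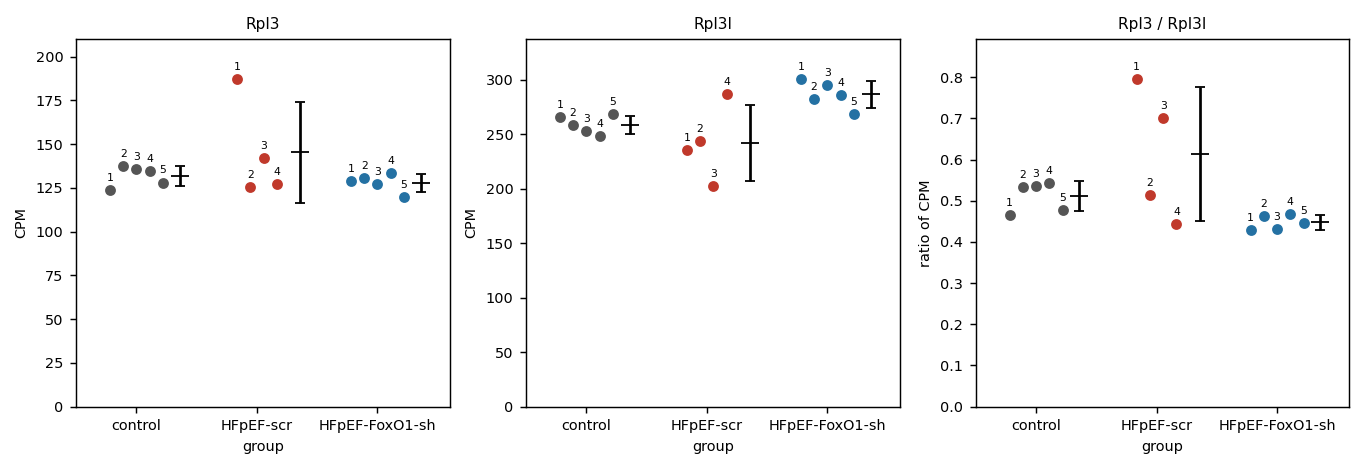
CPM of Rpl3 and Rpl3l and their ratio in each library, on axes from 0, with numbered points for libraries and bars for the group mean ± SD. HFpEF-scr 1 is high in Rpl3 and HFpEF-scr 3 is low in Rpl3l, which puts both above the other ratios, while the 5 FoxO1-sh-labelled ratios lie between 0.428 and 0.467.

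Rpl27, Rps29 and Rpl37a followed Rpl3l in that comparison. Rpl27 was at 83.6, 75.6, 74.1 and 80.2 CPM in HFpEF-scr and at 85.9, 87.98, 88.2, 92.9 and 78.9 CPM in FoxO1-sh-labelled libraries, with controls between 79.5 and 86.4. The groups overlapped through FoxO1-sh-labelled library 5, and the log2 fold change was 0.15 ± 0.05 (edgeR adjusted p = 0.120). Rps29 differed by 0.14 ± 0.05 (adjusted p = 0.138) and was the 1 member whose groups did not overlap, where 4.11% of all tested genes did not and were higher. Rpl37a differed by 0.12 ± 0.05 (adjusted p = 0.154).

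None of the 6 tested paralogs was called in any of the 3 comparisons by edgeR. Rpl22l1, the paralog of Rpl22, was scarce, at 6.90 ± 0.643 CPM in controls (SD, n = 5), 6.03 ± 1.08 in HFpEF-scr (n = 4) and 6.72 ± 0.717 in FoxO1-sh-labelled libraries (n = 5), beside the rise in Rpl22. The CPM of Rpl22 was 13.9 to 19.3 times that of Rpl22l1 in controls, 17.6 to 28.9 times in HFpEF-scr and 17.95 to 24.03 times in FoxO1-sh-labelled libraries. Rps27l, a p53 target, stayed at 17.0 ± 1.90, 17.0 ± 0.583 and 17.6 ± 1.19 CPM in the 3 groups, and its partner Rps27 was at 66.5 ± 5.35, 62.5 ± 7.39 and 63.2 ± 3.85.

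The remaining pairs moved little. Rpl7 was at 246 ± 4.77 CPM in controls (SD, n = 5) and Rpl7l1 at 44.97 ± 3.55, and neither was called in any comparison. Rpl36al, at 41.8 ± 1.47 CPM in controls, shares 24.5% of its exon bases with another gene on the same strand and differed by 0.05 ± 0.06 in log2 between FoxO1-sh-labelled and control libraries (adjusted p = 0.638), where Rpl36a had risen by 0.18. Whether the genes differ from each other was not tested. Rps4x was at 222 ± 5.29 CPM and Rps4l at 22.9 ± 6.72, the latter ranging from 13.2 to 31.9 CPM within the controls alone. Rpl10 and Rpl39, at 161 ± 2.90 and 32.1 ± 2.42 CPM in controls, were not called, and their testis paralogs Rpl10l and Rpl39l were at or near 0. Rpl37 was at 55.4 ± 5.48 CPM in controls and was not called, with reads shared in all 14 libraries. Rps19bp1 was at 6.32 ± 0.903, 6.36 ± 0.258 and 5.53 ± 1.14 CPM in the 3 groups and was not called either.

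Most of these genes are short, and the median fold change of other genes differed with transcript length. The usual subunits had a median transcript length of 774 bases, and 79.5% were under 1000 bases, against 8.22% of all tested genes, whose median was 2720 bases. Other genes under 600 bases had a median log2 fold change of -0.03 in HFpEF-scr against control, where the members of that length had 0.04. In FoxO1-sh-labelled against HFpEF-scr the medians were 0.07 for the other genes and 0.07 for the members. From 600 to under 1000 bases, the class with 42 of the tested members, they were 0.06 for the other genes and 0.04 for the members, and from 1000 to under 1500 bases 0.06 and 0.03. In FoxO1-sh-labelled against control they were 0.03 and 0.13 under 600 bases, 0.01 and 0.07 in the next class and 0.00 and 0.12 in the one after. Under 600 bases, 9 of 21 members and 9.18% of the 196 other genes were called higher against control.

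**Figure D5:**
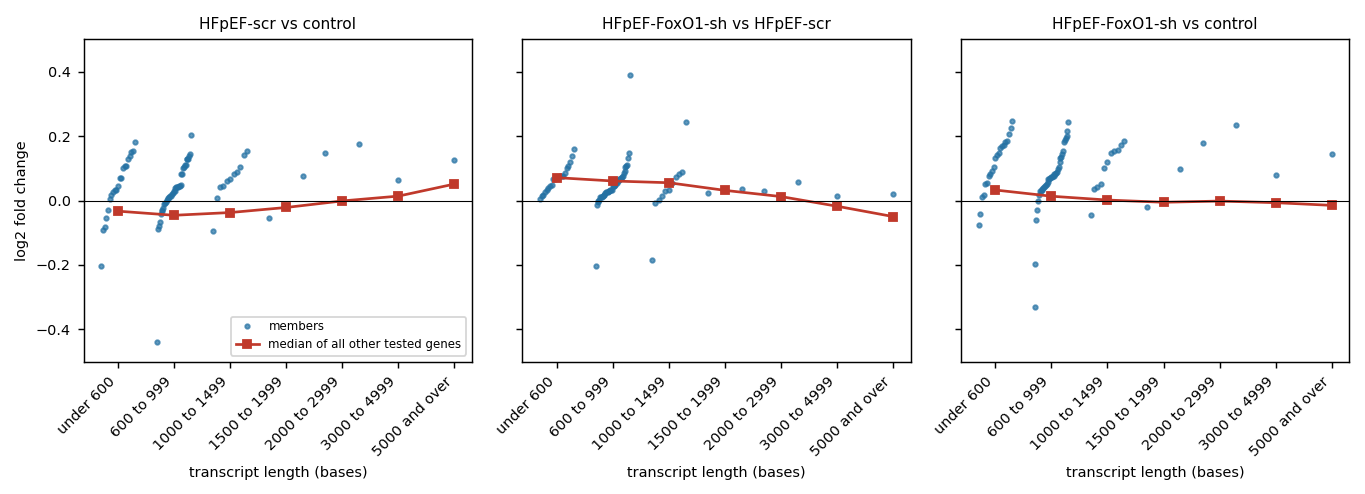
Log2 fold change of 79 tested members (points) and median of all other tested genes (squares) by class of transcript length in bases, for the 3 comparisons; values of Rpl26 below the axis are not drawn. At left the squares lie below 0 under 3000 bases and above 0 from there on, in the middle they fall with length, and they differ less between classes at right, from 0.03 in the shortest to -0.01 in the longest class.

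When trends with length and GC content, estimated over all genes, were taken out of each library, a setting added after the data were seen, 13 members were called in HFpEF-scr against control and 18 in FoxO1-sh-labelled against control. The median of the members in FoxO1-sh-labelled against HFpEF-scr then changed sign, from 0.04 to -0.01. Per library, other genes under 1000 bases had a median log2 ratio to the controls of -0.05 to -0.01 in HFpEF-scr and of 0.02 to 0.04 in FoxO1-sh-labelled libraries 1 to 4. In controls it was -0.03 to 0.02. It was -0.03 in FoxO1-sh-labelled library 5, the library with the lowest share of member counts in its group. What set the level of short transcripts was not tested.

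Other genes of translation were looked at by list. Over all tested genes, 3.66% were called higher and 3.7% lower in HFpEF-scr against control. In FoxO1-sh-labelled against HFpEF-scr the shares were 1.32% and 2.26%, and in FoxO1-sh-labelled against control 6.68% and 6.28%. The counts of each list below stand beside these shares. Of the 7 ribosomal proteins with other names, 1 was called, in FoxO1-sh-labelled against control libraries, namely Rplp2 of the stalk, which rose from 180 to 203 CPM, by 0.17 ± 0.04 in log2 (edgeR adjusted p = 0.0105). Rpsa differed by -0.04 ± 0.06 there. The median of the list was 0.01, against 0.08 for the members.

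Of the 42 initiation factors, 7 were called higher and 0 lower in FoxO1-sh-labelled against control libraries, with a median log2 fold change of 0.05. The eIF3 subunits Eif3m and Eif3e led, with 0.32 ± 0.04 (adjusted p = 8.48e-05) and 0.26 ± 0.05 (adjusted p = 0.00218), and Eif4g2 rose by 0.16 ± 0.04 (adjusted p = 0.0139). In HFpEF-scr against control, Eif3m alone was called, from 72.5 to 84.3 CPM (0.22 ± 0.04, adjusted p = 0.00643). Of 14 elongation factors, 4 were higher and 1 was lower in FoxO1-sh-labelled against control libraries. Eef2, which moves the ribosome along the messenger RNA, was 0.19 ± 0.03 higher in log2, with 2048 against 1801 CPM (adjusted p = 0.00273), and Eef1b2, the exchange factor of eEF1A, by 0.20 ± 0.04 (adjusted p = 0.00801). Eef2k, the kinase that inhibits eEF2, rose against control by 0.26 ± 0.07 (adjusted p = 0.0154) and against HFpEF-scr by 0.26 ± 0.07 (adjusted p = 0.0476).

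Of 59 tested genes of ribosome assembly and RNA polymerase I, 2 were called higher and 1 lower in HFpEF-scr against control. Of all tested genes, 3.66% and 3.7% were. In HFpEF-scr against control, Myc and the polymerase I factor Ubtf rose, by 1.06 ± 0.24 (adjusted p = 0.0160) and 0.20 ± 0.05 (adjusted p = 0.0204), and Rrp9 fell by 0.24 (adjusted p = 0.0471). Myc, a driver of ribosome synthesis in growing cells, was low throughout, at means of 3.38 CPM in controls, 7.06 in HFpEF-scr and 3.43 in FoxO1-sh-labelled libraries, where it was lower than in HFpEF-scr by -1.03 ± 0.24 (adjusted p = 0.0309). The groups overlapped in both comparisons of Myc. The HFpEF-scr libraries also differed in Fosb, an early-response gene like Myc, which was at 235, 468, 2.18 and 45.7 CPM in libraries 1 to 4, against 0.594 to 13.0 CPM in controls and 0.863 to 10.01 in FoxO1-sh-labelled libraries. Its part in the values of Myc was not tested. Gnl3, a nucleolar GTPase, fell by 0.25 between the same groups (adjusted p = 0.0308). In FoxO1-sh-labelled against control, 5 of the 59 were higher and 2 lower, beside 6.68% and 6.28% of all tested genes. Among them were the nucleolar proteins Ncl (0.25 ± 0.05, adjusted p = 0.00331) and Npm1 (0.21 ± 0.05, adjusted p = 0.00989) and the processing factor Rrp12 (-0.52 ± 0.10, adjusted p = 0.00263). The median of this list was -0.01 there.

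Of 22 tested S6 kinase and mTORC1 genes, 2 were called in HFpEF-scr libraries when set against controls: Ddit4, an inhibitor of mTORC1, at 1.23 ± 0.30 (adjusted p = 0.0234), and Rheb, which activates it, at 0.14 ± 0.04 (adjusted p = 0.0406). In FoxO1-sh-labelled against control, Deptor, another inhibitor, rose by 0.30 ± 0.07 (adjusted p = 0.00618), Rheb by 0.13 ± 0.04 (adjusted p = 0.0342), and the ribosomal S6 kinase Rps6ka1 fell by 0.49 (adjusted p = 0.0193). None was called in FoxO1-sh-labelled against HFpEF-scr by edgeR, and Rps6ka3 had the smallest p (-0.22 ± 0.07, adjusted p = 0.0711).

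The ribosome of the mitochondrion, whose 77 protein genes are also encoded in the nucleus, gave other values. In HFpEF-scr against control, 0 were higher and 11 lower with a median log2 fold change of -0.10, where the cytosolic members had 6 higher, 0 lower and a median of 0.04. Mrpl4 led, from 110 to 91.4 CPM (-0.27 ± 0.05, adjusted p = 0.00794), with Mrps30 and Mrps27 at -0.23 ± 0.05 each. In FoxO1-sh-labelled against HFpEF-scr, 3 were higher, Mrps35 (0.22 ± 0.05, adjusted p = 0.0289), Mrpl14 (0.24 ± 0.06, adjusted p = 0.0351) and Mrpl41 (0.20 ± 0.05, adjusted p = 0.0420), with a median of 0.09. Against control, FoxO1-sh-labelled libraries had 2 of 77 higher and 4 lower, beside 6.68% and 6.28% of all tested genes. The median was -0.01 in that comparison, where 24 cytosolic members were higher. The difference between the lists was not tested.

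Markers of cell types moved beside these groups. Of 10 ventricular muscle markers, 5 were called lower in HFpEF-scr and 3 in FoxO1-sh-labelled libraries against control, with summed levels of 108797 to 116389, 94975 to 105672 and 99207 to 109614 CPM in controls, HFpEF-scr and FoxO1-sh-labelled libraries. Of 6 pericyte and smooth muscle markers, 3 were higher in HFpEF-scr, with sums of 530 to 582 CPM against 433 to 477 in controls and 451 to 507 in FoxO1-sh-labelled libraries. Of 8 fibroblast markers, 2 were higher in HFpEF-scr against control. In FoxO1-sh-labelled against control, 3 were lower, the collagen genes Col1a1, Col1a2 and Col3a1. The log2 fold change was above 0 in 5 of the 8 there, with a median of 0.02, and in 0 of the 8 against HFpEF-scr. Their sums were 900 to 1051, 950 to 1102 and 699 to 882 CPM in controls, HFpEF-scr and FoxO1-sh-labelled libraries. The 5 macrophage markers were all lower in FoxO1-sh-labelled libraries than in controls, at 93.4 to 117 against 132 to 180 CPM. Endothelial markers summed to 982 to 1086, 930 to 1352 and 910 to 963 CPM. Adipocyte markers and lymphocyte markers were near 0, with Ucp1 at 0 in 13 libraries and lymphocyte sums of at most 3.95 CPM. Of 7 red cell markers 0 were called, with sums of 1031 to 1479, 538 to 6024 and 723 to 1696 CPM. Of 2 tested genes on the skeletal muscle list, Ckm, at 1630 to 2259 CPM, was lower in each HFpEF group than in controls, and Acta1 was not called. Myh4, Myh1 and Tnnt3 of that list were near 0, at most 0.493 CPM. The part of these cell types in the levels of the ribosomal protein genes was not tested.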

How the data were processed

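Left ventricle RNA was enriched for poly(A) and sequenced as Swift kit libraries, per the labels' protocols. Bowtie2 2.1.0, RSEM 1.2.15 and mm10 are named in the submitters' processing notes, and the deposited values are RSEM expected counts per gene, without stated annotation, strand or filters. After rounding, edgeR 4.0.16 (R 4.3.3) kept 13588 genes with filterByExpr, scaled by TMM and fitted all 14 libraries by group, with its quasi-likelihood test for each contrast. P-values were adjusted by the Benjamini-Hochberg method across the 13588 genes and called under 0.05. CPM are scaled by TMM. SE follow from the F statistic and intervals are 95%. The common biological coefficient of variation was 0.0999, and no 2 libraries of a group were duplicates. The method was tested on simulated data.

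Named members were, in each comparison, the called ones up to 15 by p and the 4 with the smallest p, the 3 most abundant of each subunit, a list of paralog pairs, Foxo1, and 3 genes by p of each other list. Members and lists were chosen with earlier results of these data known. Lengths and positions are from GENCODE vM21 on GRCm38, and sequences from RefSeq GRCm38.p6. Alternatives were RLE, upper-quartile and total-count scaling, no filter or at least 10 counts in every library, a replicate block, fits of 2 groups, DESeq2 1.42.0, limma 3.58.1 with voom, other totals or member sets for the share, and each library left out. Added after the data were seen were copies summed with their member, length and GC trends taken out, and the fit without HFpEF-scr 1 and HFpEF-FoxO1-sh 5. The totals of 13174118 to 21247155 counts limit precision mainly for members under 10 CPM. Some items are not reported here.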

Additional observations from a re-analysis of the deposited data

Results flagged for a closer look

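Among 108 groups of values looked at, 6 held a library that lay further from the rest of its group than a Dixon test at the 95% level allows, where chance gives about 1 in 20. FoxO1-sh-labelled library 5 was low in the summed share of counts, at 1.23% beside 1.29% to 1.31% in the other 4 libraries, in the median log2 level of the members against controls, at 0.0172 beside 0.10 to 0.13, and in Rps2, at 534.5 CPM beside 582 to 593. It was also the library of its group in which other short genes were lowest, at -0.03. Without HFpEF-scr 1 and this library together, a setting added after the data were seen, 3 members were called in HFpEF-scr against control and 2 in FoxO1-sh-labelled against HFpEF-scr.

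Rpl22l1 was at 4.42 CPM in HFpEF-scr 3, beside 6.44 to 6.66 in the other HFpEF-scr libraries, and at 5.45 CPM in FoxO1-sh-labelled library 3, beside 6.87 to 7.13. Rps4l was at 18.3 CPM in HFpEF-scr 3, beside 25.9 to 27.1. No part of these differences was tested further.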

How the results depend on the processing

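In HFpEF-scr against control, the 6 called members became 3 with upper-quartile scaling, 2 with a replicate block, 1 in a fit of the 2 groups, 10 with DESeq2, 13 with length and GC trends taken out and 3 without HFpEF-scr 1 and FoxO1-sh-labelled library 5, and ran from 1 to 9 with each library left out. In FoxO1-sh-labelled against HFpEF-scr, the 0 became 1 with DESeq2 and 2 without those 2 libraries, and 0 to 1 with each library left out. In FoxO1-sh-labelled against control, the 24 ran from 15 to 24 with each library left out and from 18 to 30 otherwise. Of the medians, 1 changed sign (-0.0084, length and GC trends). The cause of each change was not tested.

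Of 540 repeats on named members, 487 kept direction and call, 50 lost a call, 3 gained one and 0 changed sign. Most losses were in HFpEF-scr against control, where Rpl23a lost its call in 8 of 9 leave-out fits and in 5 of 12 other settings. In FoxO1-sh-labelled against control, only Rpl5, Rpl17, Rpl36a and Rps26 lost a call, in at most 2 fits each. Repeats of Rpl3l, Rpl27, Rps29 and Rpl37a, not called in the main fit, count as kept when they stayed uncalled. The share of counts kept its direction throughout. Total-count scaling moved the part of higher calls among all genes from 51.5% to about 40% in FoxO1-sh-labelled against control and from 36.8% to 22.2% against HFpEF-scr. Same-numbered libraries deviated together (r over 0.1) in 1 of 13 pairs. Control 2 and FoxO1-sh-labelled library 1, with different numbers, reached an r of 0.22. Such correlations cannot settle whether libraries with the same number share a batch or preparation. Counting error limits Rpl22l1 and Rps19bp1 most. Rpl26 and Rpl34 are low in counts as well, but the division of reads with Gm15772 and Rpl34-ps1 also moves these rows.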
